A study of Mus musculus with 2 samples.

Results

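The proteasome genes were described in splenic CD8 T cells of mouse. They were taken by name, as every symbol starting with Psma, Psmb, Psmc, Psmd, Psme, Psmf or Psmg, which gave 50 of the 31017 symbols in the feature lists. The rule uses no measured value, but it was chosen with earlier results of these data known. Wild-type C57BL/6J mice were used. CD45.1 mice aged 3 months gave their total CD8 T cells, which were moved into CD45.2 recipients aged 24 months. After 1 month, CD3e+CD8a+ cells were sorted from the spleen of a recipient then 25 months old, as CD45.2+ cells (old recipient) and CD45.1+ cells (young donor). Each group gave 1 droplet 5' library, so a group effect and a library effect cannot be told apart, and the labels do not say whether mice were pooled. No difference was tested, and every interval is a 95% interval for counting error only.

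The 20S core of the proteasome is a barrel of alpha and beta rings, and the proteolytic sites sit on the beta subunits encoded by Psmb5, Psmb6 and Psmb7. Interferon, and the lymphoid state itself, bring in the immunoproteasome subunits encoded by Psmb8, Psmb9 and Psmb10, which take those places during assembly and change which peptides are made for MHC class I. The 19S particle unfolds ubiquitin-tagged proteins and feeds them to the core, while PA28, encoded by Psme1 and Psme2, is an interferon-induced cap that works without ubiquitin.

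By role the members were 7 alpha ring genes, 4 structural beta genes, 3 constitutive and 3 immunoproteasome catalytic genes, and 2 genes of tissue-restricted cores. The 19S genes were 6 ATPases, 3 other base genes and 8 lid genes, joined by 3 base chaperones and 4 core chaperones. PA28 gave 2 genes, and 3 more encode other caps or inhibitors. The remaining 2 share only the prefix or the sequence: Psmc3ip encodes a meiotic recombination factor, and Psme2b is a near copy of Psme2 whose counts are uncertain. Of the 50 members, 48 had at least 400 unique molecules (UMIs) over both libraries. The 2 others were Psma8, the testis-type alpha gene, with 3 recipient and 2 donor UMIs, and Psmb11, the gene of the thymic cortical core, with 1 and 0 UMIs.

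Promoter sequences are shown for 4 members: the immunoproteasome genes Psmb8 and Psmb9, the PA28 gene Psme1 and the constitutive catalytic gene Psmb5. They are RefSeq sequences of GRCm38.p6, from 250 bases before to 50 after the gene's start, and 42 of the 50 members had one that was used. That start can differ from the gene bounds given further on, which are those of GENCODE M21: the windows of Psmb8, Psmb9 and Psme1 lie inside those bounds, and that of Psmb5 crosses one. Psmb8 lies at chr17:34197945-34198244 (+ strand), Psmb9 at chr17:34187281-34187580 (- strand), Psme1 at chr14:55578244-55578543 (+ strand) and Psmb5 at chr14:54617946-54618245 (- strand). Capitals mark a match to a motif on either strand: TTCNNNGAA (gamma-activated site) in Psmb8, the interferon-stimulated response element core (GAAA, any 2 bases, GAAA) in Psme1, and TGACNNNGC (antioxidant response element core) in Psmb5.
Psmb8: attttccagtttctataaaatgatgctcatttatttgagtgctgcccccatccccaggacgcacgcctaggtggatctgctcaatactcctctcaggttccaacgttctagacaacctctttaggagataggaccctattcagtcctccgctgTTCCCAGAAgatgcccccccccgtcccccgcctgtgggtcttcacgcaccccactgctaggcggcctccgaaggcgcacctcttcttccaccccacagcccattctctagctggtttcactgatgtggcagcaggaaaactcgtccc
Psmb9: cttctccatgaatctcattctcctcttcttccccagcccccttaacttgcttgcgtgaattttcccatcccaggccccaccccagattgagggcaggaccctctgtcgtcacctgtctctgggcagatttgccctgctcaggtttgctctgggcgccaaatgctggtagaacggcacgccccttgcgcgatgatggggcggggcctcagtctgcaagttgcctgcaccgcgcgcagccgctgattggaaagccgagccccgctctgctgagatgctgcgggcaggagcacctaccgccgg
Psme1: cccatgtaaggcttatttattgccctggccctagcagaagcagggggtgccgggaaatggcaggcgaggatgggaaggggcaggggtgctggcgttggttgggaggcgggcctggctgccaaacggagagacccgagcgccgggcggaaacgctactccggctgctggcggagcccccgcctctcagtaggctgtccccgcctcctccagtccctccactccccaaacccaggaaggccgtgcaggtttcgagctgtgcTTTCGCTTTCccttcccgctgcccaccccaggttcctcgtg
Psmb5: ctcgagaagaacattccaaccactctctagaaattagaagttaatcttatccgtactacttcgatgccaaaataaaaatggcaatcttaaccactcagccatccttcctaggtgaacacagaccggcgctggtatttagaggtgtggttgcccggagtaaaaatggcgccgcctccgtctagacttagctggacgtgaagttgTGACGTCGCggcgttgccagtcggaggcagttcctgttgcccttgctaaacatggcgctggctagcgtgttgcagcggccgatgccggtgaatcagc
The window of Psmb9 held none of these 3 motifs. TTCNNNGAA was present in 3 of the 42 members (Psmb8, Psmd2 and Psmg1) and in 8.30% of 32851 promoters of the same length. The interferon-stimulated core was in 5 members (Psmb3, Psmd4, Psmd9, Psme1 and Psmg4) and in 3.44% of all promoters. TGACNNNGC was in 6 members (Psmb5, Psmb6, Psmc6, Psmd12, Psmd9 and Psme4) and in 12.4% of all. None of the motifs contains another, and a window can hold more than 1, as that of Psmd9 did. A match is a description of letters and not of binding.

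Filtering left 5341 recipient and 7451 donor cells, whose median UMI counts were 6905 and 7784. All 6 CD8 T cell markers had UMIs in every cell group, with a summed level of 4576 to 5960 CPM (counts scaled to the total UMIs of the same cells). Markers of other cells had low sums over all kept cells. B cell genes had UMIs for 10 of 12 in the recipient and 9 of 12 in the donor and summed to 192 and 165 CPM, of which Ighm gave 155 and 134, while Pax5 was at 0 in both. Myeloid genes had UMIs for all 10 and summed to 110.1 and 103 CPM, of which Cst3 gave 98.4 and 93.1. NK cell genes summed to 183 and 128 CPM, with Ncr1 at 0 in the donor, and CD4 and regulatory T cell genes to 68.2 and 24.1 CPM, with Cd4 at 0 in the recipient only. The part of such cells in the results was not tested. Both libraries held 105 barcodes in common, of which 62 recipient and 66 donor cells were kept. Leaving them out moved none of 105 gene ratios outside its own interval.

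Cells were grouped by raw UMIs. Naive-type cells had at least 1 Ccr7 UMI, at most 1 of Ly6c2, none of Gzmk or Iigp1 and at most 2 of Ccl5. The other groups had at least 2 UMIs of Ly6c2, a memory marker, at least 2 of Gzmk, a granzyme gene known from age-associated CD8 T cells, or at least 1 of Iigp1, an interferon-induced GTPase gene. Naive-type cells numbered 1483 in the recipient and 785 in the donor, Ly6c2 cells 2259 and 5136, Gzmk cells 1094 and 1156, and Iigp1 cells 254 and 233. These last 3 groups overlap: 104 recipient and 141 donor Iigp1 cells were also Ly6c2 cells, and 22 and 15 were also Gzmk cells. Counts were summed over the cells of a group and divided by all UMIs of the same cells. A list of 8 naive markers summed to 2937 CPM in recipient and 3038 in donor naive-type cells. It summed to 2261 and 2097 CPM in Ly6c2 cells and to 786 and 851 in Gzmk cells. In the same order, 8 memory markers summed to 908 and 899, 9561 and 10300, and 38405 and 33903 CPM. Both lists include genes of the group rules. Ly6c2 cells thus held transcripts of both lists and are not called memory cells.

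Across all kept cells the immunoproteasome genes differed little between the libraries, and the catalytic partners they replace differed less. Psmb8 (ENSMUSG00000024338, chr17:34197721-34201454), which encodes the beta5i subunit, was at 770 CPM in recipient cells and 708 in donor cells, a log2 ratio of 0.12 (0.10 to 0.14). Psmb9 (ENSMUSG00000096727, chr17:34181987-34187764, beta1i) was at 265 and 245 CPM, a log2 ratio of 0.11 (0.08 to 0.15). Psmb10 (ENSMUSG00000031897, chr8:105935735-105938444, beta2i) was at 229 and 221 CPM, a log2 ratio of 0.05 (0.01 to 0.09). All 3 were slightly higher in recipient cells on this scale. With TMM factors, or with totals without ribosomal protein and mitochondrial genes, Psmb8 was at 0.07 and 0.09 and Psmb9 at 0.06 and 0.08, but Psmb10 at -0.00 and 0.02, so its direction depended on the scaling.

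The constitutive genes were nearly level. Psmb5 (ENSMUSG00000022193, chr14:54614119-54618022, beta5) was at 165 CPM in recipient cells and 160.1 in donor cells, Psmb6 (ENSMUSG00000018286, chr11:70525367-70527858, beta1) at 136 and 137, and Psmb7 (ENSMUSG00000026750, chr2:38588036-38644087, beta2) at 46.8 and 45.8. Their log2 ratios were 0.04 (-0.00 to 0.09), -0.00 (-0.05 to 0.05) and 0.03 (-0.06 to 0.12), so every interval held 0. Immunoproteasome UMIs made up 78.4% (78.1 to 78.7) of catalytic UMIs in recipient cells and 77.4% (77.1 to 77.7) in donor cells, a log2 odds ratio of 0.08 (0.05 to 0.12). This share compares transcripts whose capture may differ by gene, so it is no measure of protein, and only its change between groups is used.

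Of the 48 members with at least 400 UMIs, 1 was higher in the recipient by the fold used for all counts here, a log2 ratio of 0.32 or more in size, against 4.15% of 8536 genes. Of the 48, 0 were lower by it, against 3.23%. The 1 was Psmc3ip (chr11:101091823-101095436), the recombination factor gene, with 5.64 CPM in recipient cells, 3.97 in donor cells and a log2 ratio of 0.51 (0.23 to 0.78). Median log2 ratios were 0.06 over members and 0.03 over all genes. The alpha ring genes had a median of 0.08, with all 7 above 0, and the 6 ATPase genes one of 0.10, again all above 0. Above 0 were also 41 of the 48 members and 5213 of all 8536 genes. With TMM factors, or without ribosomal protein and mitochondrial genes, Psma7 of the alpha ring was at -0.03 and -0.01. The ATPase gene Psmc6 was at -0.04 and -0.02 there, so these counts depended on the scaling. Scaled to all UMIs, PA28 stood at 0.07 for Psme1 (666 and 634 CPM) and 0.04 for Psme2 (499 and 484 CPM). The lowest member was Psme2b at -0.24 (-0.40 to -0.08), from 13.6 and 16.0 CPM, while Psme2 itself was above 0.

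The size and sign of the library difference in the catalytic genes varied over the cell groups. In naive-type cells the log2 odds ratio of immunoproteasome against constitutive UMIs, recipient over donor, was -0.02 (-0.11 to 0.07). In Ly6c2 cells it was 0.12 (0.07 to 0.17). Gzmk cells gave -0.12 (-0.21 to -0.03) and Iigp1 cells -0.12 (-0.29 to 0.06). The small excess over all cells was thus present in Ly6c2 cells and went the other way in Gzmk cells. The difference between these groups was not tested. All-cell values also mix groups of unlike size. Naive-type cells were 27.8% of recipient and 10.5% of donor cells, Ly6c2 cells 42.3% and 68.9%, and Gzmk cells 20.5% and 15.5%. The part of this mix in the all-cell ratios was not tested.

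**Figure D1:**
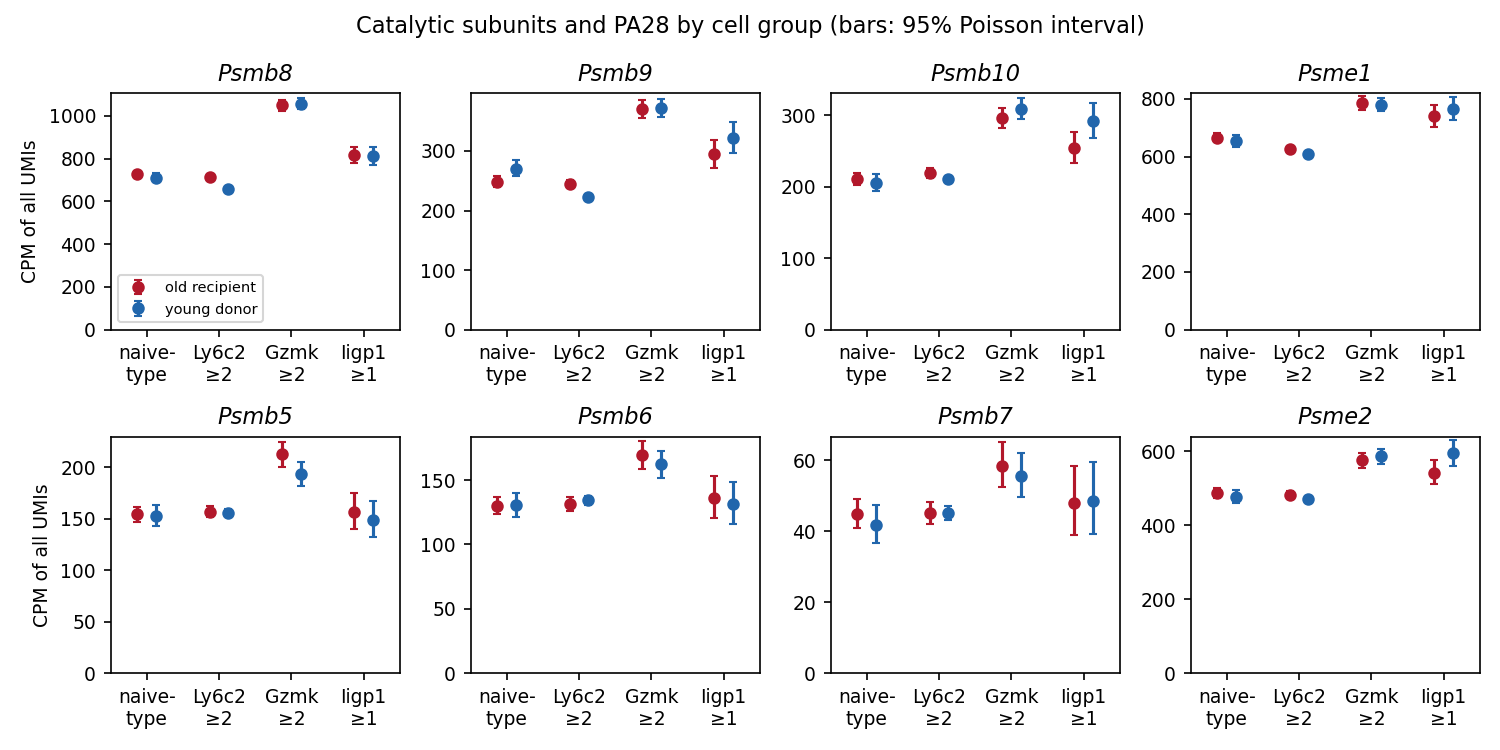
Level of the 3 immunoproteasome genes, the 3 constitutive catalytic genes and both PA28 genes in CPM (y axes, from 0) in 4 cell groups (x axes) of the recipient (red) and donor (blue) library; points are sums over cells and bars exact 95% Poisson intervals. In each library the Gzmk cells are highest for every gene except donor Psme2, which is highest in Iigp1 cells (594 CPM); in Iigp1 cells Psmb8, Psmb9, Psmb10, Psme1 and Psme2 sit above naive-type cells, while the intervals of Psmb5, Psmb6 and Psmb7 overlap those of naive-type cells.

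Ly6c2 cells kept proteasome genes close to the naive-type level. Psmb8 was at 728 CPM in naive-type and 714 in Ly6c2 cells of the recipient, and at 710.0 and 658 in the donor. Psmb9 was at 248 and 245 CPM in the recipient and at 270.5 and 223 in the donor. Psmb10 was at 211 and 219 CPM in the recipient and at 206 and 211 in the donor. The donor value of Psmb9 in Ly6c2 cells was the lowest of its 8, with a log2 ratio to naive-type cells of -0.28 (-0.35 to -0.20), and that of Psmb8 was -0.11 (-0.16 to -0.06). In the recipient the same ratios were -0.02 (-0.09 to 0.05) and -0.03 (-0.07 to 0.01), and both intervals held 0.

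The immunoproteasome share of catalytic UMIs was 78.3% (77.7 to 78.9) in naive-type and 77.9% (77.5 to 78.4) in Ly6c2 cells of the recipient. In the donor it was 78.5% (77.6 to 79.3) and 76.5% (76.2 to 76.9). The log2 odds ratios were -0.03 (-0.10 to 0.04) and -0.16 (-0.24 to -0.09), so the lower share in Ly6c2 cells was clear of counting error only in the donor; the difference between libraries was not tested. By pair, the donor ratio was -0.32 (-0.45 to -0.19) for Psmb9 against Psmb6, -0.14 (-0.25 to -0.03) for Psmb8 against Psmb5 and -0.07 (-0.28 to 0.14) for Psmb10 against Psmb7. In donor Ly6c2 cells 5 of 9 measured interferon GTPase genes were lower than in naive-type cells by a log2 ratio of at least 0.32 and 1 was higher, with a median of -0.33. In the type I response list 1 of 9 was lower and 2 were higher, with a median of 0.20, so the interferon lists did not move one way. In recipient Ly6c2 cells 0 of 8 GTPase genes were lower and 1 was higher, and of 6 type I response genes 1 was lower and 0 were higher. Of all genes 6.83% were lower and 14.0% higher in donor Ly6c2 cells, and 4.08% lower and 9.96% higher in recipient Ly6c2 cells. Whether these values bear on the catalytic genes was not tested.

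No member was past the log2 ratio of 0.32 in Ly6c2 cells of either library. In the recipient 0 of 45 were higher, against 9.96% of 5584 genes, and 0 lower, against 4.08%. In the donor 0 of 47 were higher, against 14.0% of 7147 genes, and 0 lower, against 6.83%. Member medians were -0.03 in both libraries, beside 0.01 and 0.03 over all genes. Among the other roles the core chaperones Psmg1 and Psmg4 stood lowest in the recipient, at -0.21 (-0.40 to -0.02) and -0.18 (-0.32 to -0.05), and the lid gene Psmd3 stood at -0.26 (-0.41 to -0.10) in the donor. Structural beta genes had medians of 0.02 and 0.03 and the constitutive catalytic genes of 0.01 and 0.04. Proteasome transcripts were 0.607% of all UMIs in recipient and 0.592% in donor Ly6c2 cells, beside 0.618% and 0.609% in naive-type cells.

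Gzmk cells had a larger part of their transcripts in proteasome genes, 0.798% of recipient and 0.782% of donor UMIs. The immunoproteasome genes were among the members furthest above the naive-type level. Psmb8 was at 1049.6 CPM in recipient and 1057 in donor Gzmk cells, and the log2 ratios were 0.53 (0.48 to 0.58) and 0.57 (0.52 to 0.63). Psmb9 was at 370.2 and 372 CPM, with ratios of 0.58 (0.50 to 0.66) and 0.46 (0.37 to 0.55). Psmb10 was at 296 and 309 CPM, with ratios of 0.49 (0.40 to 0.58) and 0.59 (0.48 to 0.69). In both libraries the Gzmk cells had the highest level of all 3 genes among the 4 groups.

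The constitutive partners were higher too, with lower point values than their replacing subunit in each of the 3 pairs in both libraries. Psmb5 was at 212 CPM in recipient and 193 in donor Gzmk cells, with ratios of 0.46 (0.36 to 0.57) and 0.34 (0.21 to 0.46). Psmb6 was at 169 and 162 CPM, with ratios of 0.38 (0.26 to 0.50) and 0.31 (0.17 to 0.45). Psmb7 was at 58.5 and 55.7 CPM, with ratios of 0.38 (0.18 to 0.59) and 0.42 (0.17 to 0.66). Relative to the median of all genes, 0.32 in both libraries, Psmb5 was at 0.14 and 0.02, Psmb6 at 0.06 and -0.01, and Psmb7 at 0.06 and 0.10. In each library these 3 lay closer to that median than the immunoproteasome genes did. The whole catalytic set was thus higher relative to the total, as were most genes, and the balance within it moved by a small amount. The immunoproteasome share was 79.6% (78.9 to 80.3) in recipient and 80.9% (80.2 to 81.6) in donor Gzmk cells, with log2 odds ratios to naive-type cells of 0.11 (0.03 to 0.20) and 0.21 (0.12 to 0.31). Without the 3 most common Trbv segments of Gzmk cells in each library the donor value was 0.12 (-0.00 to 0.24); these segments were Trbv16, Trbv13-2 and Trbv1 in the recipient and Trbv17, Trbv12-1 and Trbv19 in the donor.

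**Figure D2:**
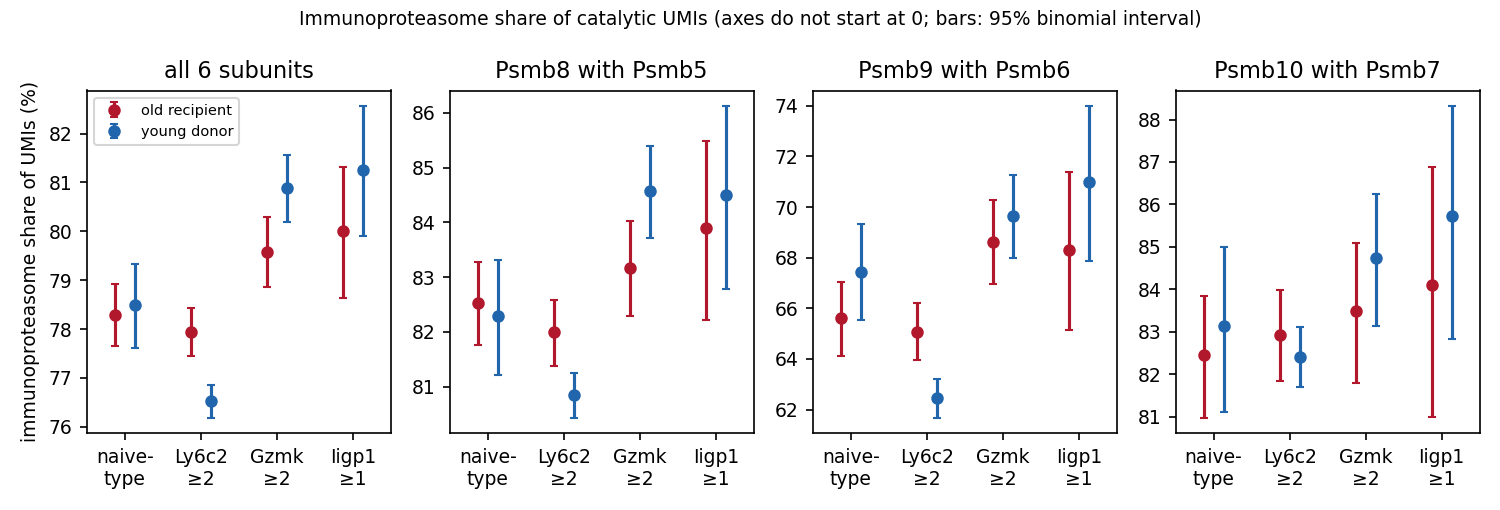
Share of immunoproteasome UMIs among the UMIs of all 6 catalytic genes (left) and within each pair of replacing and replaced subunit (other panels), in percent (y axes, which do not start at 0), in 4 cell groups (x axes) of the recipient (red) and donor (blue); bars are exact 95% binomial intervals. The share over all 6 runs from 76.5% in donor Ly6c2 cells to 81.3% in donor Iigp1 cells.

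PA28 did not share the larger ratios of the immunoproteasome genes. Psme1 (ENSMUSG00000022216, chr14:55578123-55581529), the PA28 alpha gene, was at 666 CPM in naive-type and 785 in Gzmk cells of the recipient and at 654 and 781 in the donor. Psme2 (ENSMUSG00000079197, chr14:55587441-55591113), the PA28 beta gene, was at 487 and 575 CPM in the recipient and at 476 and 585 in the donor. The ratios of Psme1 were 0.24 (0.18 to 0.29) and 0.26 (0.19 to 0.32), and those of Psme2 0.24 (0.18 to 0.30) and 0.30 (0.23 to 0.37). All 4 lay below the median of all genes, which was 0.32 in both libraries. Relative to that median Psme1 was at -0.08 and -0.07 and Psme2 at -0.08 and -0.02, whereas Psmb8 was at 0.21 and 0.25, Psmb9 at 0.26 and 0.14, and Psmb10 at 0.17 and 0.27.

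The scale of these ratios was set by the total. Ribosomal protein genes took 27.3% of UMIs in recipient and 29.4% in donor Gzmk cells, against 42.5% and 42.7% in naive-type cells, and the median UMIs per cell were 4606 and 4530 against 7185 and 7566. Psmb8 had 5.48 and 5.30 UMIs per Gzmk cell and 5.36 and 5.40 per naive-type cell, so its molecules per cell were about level while the total was smaller. Of 44 recipient members 25 were higher by a log2 ratio of at least 0.32, against 50.0% of 4090 genes, and 1 was lower, against 10.3%. Of 41 donor members 23 were higher, against 49.8% of 3148 genes, and 0 were lower, against 9.72%. With TMM factors, or with totals that leave out ribosomal protein and mitochondrial genes, 0 members were higher in either library, and both PA28 genes turned below 0 in both libraries. Psme1 was at -0.10 and -0.12 under these scalings in recipient cells and at -0.06 and -0.07 in donor cells. Psme2 was at -0.09 and -0.12 in recipient cells and at -0.01 and -0.03 in donor cells, where both intervals held 0. The part of the ribosomal share in these ratios was not tested.

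Over the other roles the members spread widely around the all-gene median. Psma1, an alpha ring gene (chr7:114264606-114276118), was the highest, at 84.5 and 132 CPM in recipient and 77.8 and 120.3 in donor naive-type and Gzmk cells, with ratios of 0.64 and 0.63. Psmb3, a structural beta gene, had ratios of 0.62 and 0.54, and Psmd4, which encodes a ubiquitin receptor of the base, 0.58 and 0.61. Psmc2, an ATPase gene, was at 0.51 and 0.47. These 4 genes come from 4 parts of the particle, so the upper end was not made up of catalytic genes alone.

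The counts by role stand beside 50.0% of all genes higher in the recipient and 49.8% in the donor. The 3 non-ATPase base genes, Psmd1, Psmd2 and Psmd4, were all higher by that fold in both libraries, with medians of 0.47 and 0.49. The alpha ring had 4 and 5 of 7 genes higher by it and medians of 0.40 and 0.34, with Psma7 lowest at 0.16 and 0.14. The ATPase genes had 3 of 6 past it in each library and medians of 0.30 and 0.34. The lid had 4 and 3 of 8 past it and medians of 0.33 and 0.31, and it held the deubiquitinase gene Psmd14 (0.48 and 0.44) as well as Psmd7, the partner of Psmd14, at 0.04 and 0.00. The genes of this lid dimer thus differed in ratio, with Psmd7 near the naive-type CPM and Psmd14 above it.

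Of the chaperones of core assembly, Psmg1, Psmg2 and Psmg4 stood at the low end, but members of other roles stood there too. The lid gene Psmd7 was below Psmg2 in both libraries. The lid gene Psmd3 and the ATPase gene Psmc5 were below Psmg2 in the donor, at -0.09 and -0.04, but not in the recipient, at 0.13 and 0.25. Psmg3, too low to be counted, did not stand low in the donor. It had 136 UMIs in donor Gzmk and 114 in donor naive-type cells, out of totals of 5801905 and 5966078. Psmg1 (chr16:95979933-95990960) was at 35.2 CPM in naive-type and 23.5 in Gzmk cells of the recipient, a ratio of -0.58 (-0.88 to -0.30). In the donor it was at 32.7 and 24.5 CPM, a ratio of -0.42 (-0.74 to -0.10) from 195 and 142 UMIs, in sum below the 400 needed to be counted. Psmg4 was at -0.13 (-0.32 to 0.06) and -0.22 (-0.44 to -0.01), and Psmg2 at 0.05 and 0.10. Psmg1 was the only member counted as lower in the recipient, and it was the lowest of the 44. Of the caps and inhibitors outside PA28 alpha and beta, Psme3 (PA28 gamma, nuclear) was below the all-gene median, at 0.16 and 0.22, and Psmf1 (the inhibitor PI31) above it, at 0.39 and 0.37. Psme4 (PA200) and Psmg3 were too low to be counted, with 91 and 74 UMIs of Psme4 and 223 and 122 of Psmg3 in recipient naive-type and Gzmk cells, and 67 and 54 and 114 and 136 in those of the donor.

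**Figure D3:**
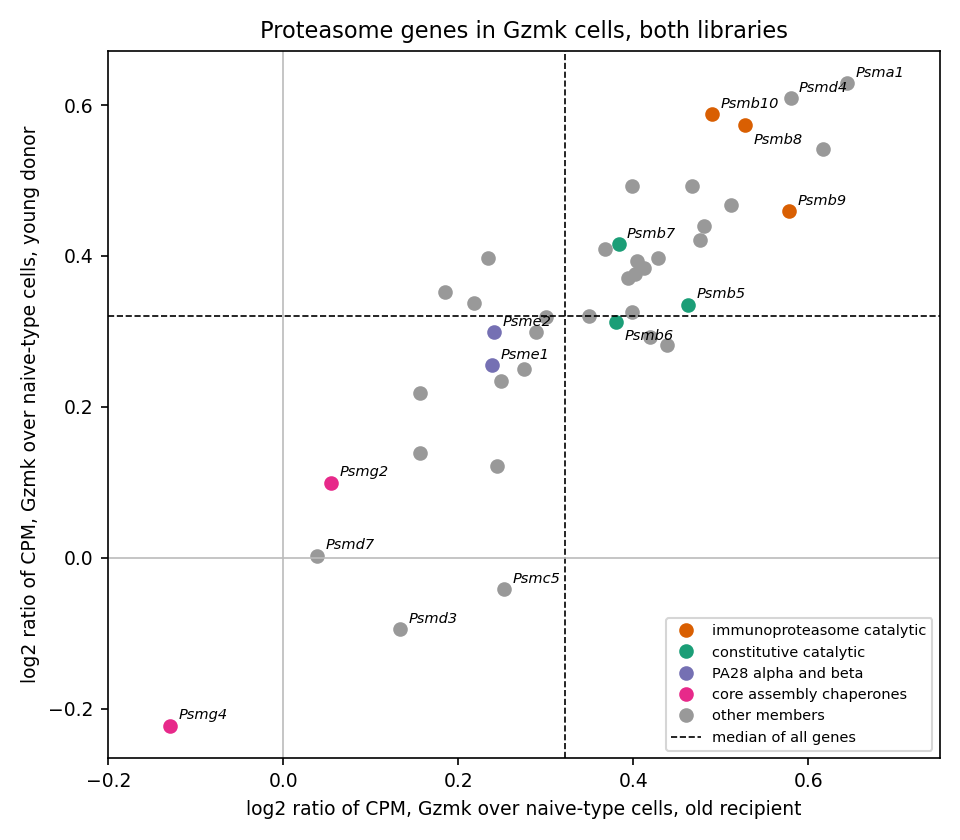
Each point is 1 of the 41 members with at least 400 UMIs in both libraries; axes give the log2 ratio of CPM of Gzmk over naive-type cells in the recipient (x) and donor (y), and dashed lines the median of all genes, 0.32 in each. Psmb8, Psmb9 and Psmb10 lie above both lines, Psme1 and Psme2 below both, and Psmg4 is below 0 on both axes.

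The order of members was similar in both libraries. Over the 41 members counted in both, 39 had the same sign, the median absolute difference between the log2 ratios was 0.05, and Pearson's r was 0.87. These points are genes of 1 pair of libraries and share their cell selection and totals, so r is a description only. The largest difference was 0.29, for Psmc5, an ATPase gene, at 0.25 in the recipient and -0.04 in the donor. The most common Trbv segments of the Gzmk cells differed between the libraries, as named above. The leading one in each library took 14.4% of recipient and 19.3% of donor Gzmk cells. Whether any of these segments was expanded was not tested.

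Genes that work beside the proteasome were read from lists. Of the partners named outside the prefixes, 12 in the recipient and 11 in the donor were measured, and the same 5 were higher by a log2 ratio of at least 0.32 in Gzmk cells of both. They were Zfand5, a proteasome-activating zinc finger gene (0.87 and 0.54), Txnl1, a redox protein of the 19S particle (0.46 and 0.62), Vcp, the p97 segregase (0.53 and 0.40), Pomp, the core maturation factor (0.44 and 0.34), and Adrm1, a ubiquitin receptor (0.38 and 0.51). Nfe2l2, which encodes the oxidative stress factor NRF2, was at -0.31 and -0.17. The list medians were 0.22 and 0.25, below the 0.32 of all genes, and 5 of 12 and 5 of 11 is no larger a share than the 50.0% and 49.8% of all genes.

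In the antigen processing list, 10 of 14 genes were higher by that fold in Gzmk cells of each library and 1 was lower, with medians of 0.65 and 0.62. Of all genes 50.0% and 49.8% were higher and 10.3% and 9.72% lower. The class I heavy chains H2-K1 (0.99 and 0.91) and H2-D1 (0.92 and 0.83) led it, with Tap1 at 0.85 and 0.82 and Nlrc5, the class I transactivator gene, at 0.89 and 0.78. H2-K1, H2-D1, Tap1 and Nlrc5, which are among the higher genes of the list, were thus further above naive-type cells than the immunoproteasome genes were. PA28 stayed below the all-gene median beside them. NK cell markers, which memory CD8 T cells share in part, summed to 537 and 416 CPM in Gzmk cells and to 14.1 and 13.6 CPM in naive-type cells, with 7 of 8 genes detected in Gzmk cells of each library and Ncr1 at 0. Cells with at least 3 UMIs of cycling genes were 4.02% and 3.46% of Gzmk cells against 1.01% and 0.892% of naive-type cells, and leaving them out gave log2 odds ratios of 0.12 and 0.24.

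Iigp1 cells held higher immunoproteasome and PA28 transcripts, while the intervals of the 3 constitutive genes held 0. Psmb8 was at 817 CPM in recipient and 812 in donor Iigp1 cells, with ratios to naive-type cells of 0.17 (0.09 to 0.24) and 0.19 (0.11 to 0.28). Psmb9 was at 294 and 322 CPM, with ratios of 0.25 (0.12 to 0.37) and 0.25 (0.11 to 0.38). Psmb10 was at 254 and 292 CPM, with ratios of 0.27 (0.13 to 0.41) and 0.51 (0.36 to 0.65). Every one of these 6 intervals was above 0, and Psmb10 in the donor was past the log2 ratio of 0.32.

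PA28 went the same way. Psme1 was at 740.5 and 766 CPM in recipient and donor Iigp1 cells, with ratios of 0.15 (0.07 to 0.23) and 0.23 (0.14 to 0.31). Psme2 was at 542 and 594 CPM, with ratios of 0.16 (0.06 to 0.25) and 0.32 (0.22 to 0.42). The donor value, 0.3198 with more digits, was just under the 0.3219 needed to be counted. Psmb5, at 157 and 149 CPM, had ratios of 0.02 (-0.15 to 0.20) and -0.04 (-0.23 to 0.16). For Psmb6 the ratios were 0.07 (-0.12 to 0.25) and 0.01 (-0.20 to 0.22), and for Psmb7 0.10 (-0.23 to 0.41) and 0.22 (-0.14 to 0.57). The intervals of Psmb7 were wide and do not show that it was level. Psme2b, the near copy of Psme2, was at 15.0 and 27.4 CPM from 31 and 53 UMIs, too few to separate it from its parent.

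The immunoproteasome share was 80.0% (78.6 to 81.3) in recipient and 81.3% (79.9 to 82.6) in donor Iigp1 cells, with log2 odds ratios to naive-type cells of 0.15 (0.02 to 0.28) and 0.25 (0.11 to 0.39). The recipient value was 0.31 (0.12 to 0.49) when cells meeting more than 1 group rule were left out, and 0.00 (-0.27 to 0.28) after thinning every cell to 3500 UMIs. Ribosomal protein genes took 42.0% and 41.9% of UMIs in Iigp1 cells, beside 42.5% and 42.7% in naive-type cells. Median UMIs per cell were 7806 and 8218, above the 7185 and 7566 of naive-type cells, and a rule of 1 UMI picks deeper cells more readily; the part of depth in the ratios was not tested.

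By count, 0 of 43 recipient members were higher, against 3.85% of 3088 genes, and 0 lower, against 3.34%. In the donor 1 of 35 was higher, against 4.33% of 1939 genes, and 1 lower, against 3.66%; these were Psmb10 and the lid gene Psmd3 (chr11:98682554-98695979). Psmd3 was at 69.9 CPM in recipient and 51.2 in donor Iigp1 cells, from 144 and 99 UMIs. Its ratios to naive-type cells were 0.28 (0.01 to 0.54) and -0.36 (-0.70 to -0.04), in opposite directions. Members other than the immunoproteasome and PA28 genes had medians of -0.01 and 0.01, beside -0.01 and -0.02 over all genes.

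The same cells were high in other interferon-linked genes. All 6 measured interferon GTPase genes in the recipient and all 3 in the donor were past a log2 ratio of 0.32, Igtp at 1.05 and 1.02, Gbp2 at 0.82 and 1.05 and Irgm1 at 0.65 and 0.89. Of the type I response list 5 of 5 and 4 of 4 measured genes were past it, with Isg15 at 1.32 and 1.93. Of all genes 3.85% in the recipient and 4.33% in the donor were higher by that ratio. The lists hold 13 GTPase and 12 type I response genes, and only those reaching the UMI minimum were measured. That minimum is summed over both sides, so a low gene can reach it through high counts in Iigp1 cells. The part of this in the list counts was not tested. Irf1, which binds the promoters of immunoproteasome genes, was at 0.51 and 0.45, while H2-K1 was at 0.12 and 0.08. In Gzmk cells Igtp was at -0.55 and -0.79 and H2-K1 at 0.99 and 0.91, with Isg15 at 1.41 and 1.15. Igtp was the lowest measured GTPase gene there in both libraries. Of these GTPase genes 6 of 7 in the recipient and 4 of 5 in the donor were above 0. Their medians were 0.30 and 0.14. Over all genes 3182 of 4090 and 2486 of 3148 were above 0, with a median of 0.32 in each. The values of Iigp1 and Gzmk cells are set side by side only, since both use the same naive-type cells.

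Cells with and without an Iigp1 UMI were compared within a stage, which holds the stage rule fixed. A stage here is only a group set by the UMI rules for Ccr7, Ly6c2, Gzmk and Ccl5. Among cells meeting the other naive-type criteria, 110 recipient and 70 donor cells had an Iigp1 UMI. The log2 odds ratio of immunoproteasome against constitutive UMIs, with over without, was 0.35 (0.14 to 0.55) for recipient and 0.20 (-0.04 to 0.45) for donor cells. Among Ly6c2 cells below the Gzmk threshold, with 100 and 137 such cells, it was 0.01 (-0.17 to 0.19) and 0.44 (0.28 to 0.59). Gzmk cells had only 22 and 15 with an Iigp1 UMI and gave 0.14 (-0.27 to 0.55) and 0.27 (-0.28 to 0.82). All 6 values were at or above 0, and the interval excluded 0 in 1 stage of each library.

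The largest of these values fell in another stage in each library. In recipient cells of naive type Psmb8 was at 822 CPM with an Iigp1 UMI and 728 without, a ratio of 0.17 (0.06 to 0.29), and Psmb5 at 130.0 and 154, a ratio of -0.25 (-0.53 to 0.03). In recipient Ly6c2 cells Psmb9 was at 315 and 236 CPM, a ratio of 0.41 (0.24 to 0.59), but Psmb5 was also higher, at 181 and 154 CPM (0.23, -0.00 to 0.46). In donor Ly6c2 cells all 3 immunoproteasome genes were above their level without Iigp1: Psmb8 at 823 and 648 CPM, Psmb9 at 320 and 218, and Psmb10 at 281 and 208. Their ratios were 0.34 (0.25 to 0.43), 0.55 (0.40 to 0.70) and 0.44 (0.28 to 0.59), while Psmb5 was at -0.04 (-0.26 to 0.17). The difference between the libraries in this contrast was not tested.

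PA28 genes were higher in Iigp1 cells of the naive-type and Ly6c2 stages in both libraries. Psme1 had ratios of 0.13 (0.01 to 0.25) and 0.21 (0.06 to 0.36) in recipient and donor naive-type cells and of 0.24 (0.13 to 0.35) and 0.34 (0.24 to 0.43) in Ly6c2 cells. For Psme2 the ratios were 0.15 (0.01 to 0.29) and 0.27 (0.10 to 0.43) in naive-type cells, and 0.16 (0.03 to 0.29) and 0.35 (0.25 to 0.46) in Ly6c2 cells. In these stages all 8 intervals were above 0, which held for the immunoproteasome genes in 6 of 12 values. In the Gzmk stage, with its 22 and 15 cells, Psme1 was at 0.08 (-0.21 to 0.36) and 0.11 (-0.23 to 0.44) and Psme2 at 0.13 (-0.20 to 0.45) and 0.25 (-0.13 to 0.60), and all 4 intervals held 0.

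**Figure D4:**
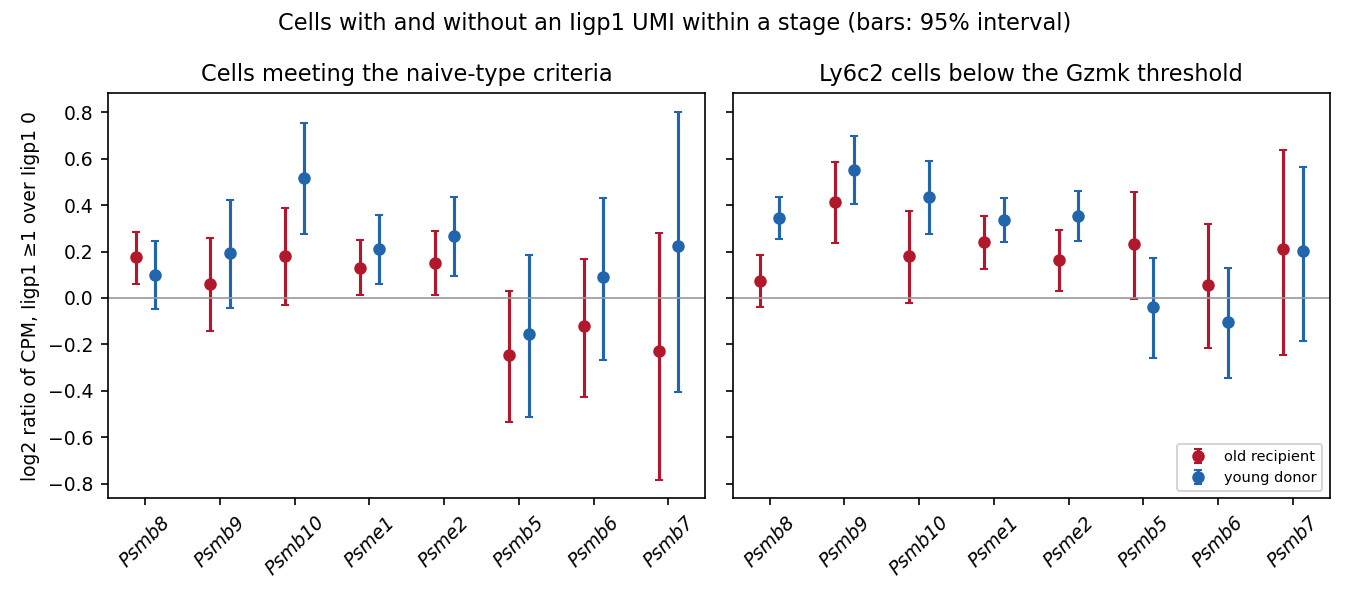
Log2 ratio of CPM of cells with at least 1 Iigp1 UMI over cells with none (y axes) for 8 genes (x axes), among cells meeting the other naive-type criteria (left) and Ly6c2 cells below the Gzmk threshold (right), in the recipient (red) and donor (blue); bars are 95% intervals for counting error. Psme1 and Psme2 lie above 0 in all 4 sets of cells, while the intervals of Psmb5, Psmb6 and Psmb7 all reach 0.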

How the data were processed

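Sorting gave 1 gene expression library per group. The authors deposited unnormalized UMI counts for each gene and barcode. The build was mm10 and the tools were Cell Ranger and Seurat, per the submitters' processing notes, with software version 3.0.2 per the file headers. The annotation release and the cell-calling rules are not given in the sources used here. Genes were placed with GENCODE M21 (30934 of 31053 features, all 50 members). Barcodes with under 500 genes or over 10% mitochondrial UMIs were removed, then doublets (278 recipient, 550 donor) by nearest neighbours among simulated doublets, leaving 37609494 and 57962040 UMIs. UMIs were summed per group of cells. A log2 ratio of at least 0.3219 in size (1.25-fold, written as 0.32) with at least 400 UMIs over both sides was counted. All genes but receptor segments formed the background. Intervals are 95% (exact Poisson for levels, exact conditional for ratios, exact binomial for shares, normal approximation for log odds ratios). Catalytic, PA28, cap and chaperone genes were always named, as were up to 6 members at each end past that ratio; a few other members were named after their values were seen. Other lists gave up to 3 genes at each end, and some more named likewise. Members and lists were chosen with earlier results of these data known. Other filters, group rules, scalings and UMI minimums were also tried, and leaving out barcodes of both libraries was added after seeing the data. The ratio script was tested on simulated data (Python 3.11.15, numpy 2.4.6, scipy 1.17.1, pandas 2.3.3, scikit-learn 1.9.0). The values of 2 listed genes that are not members are not reported here.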

Additional observations from a re-analysis of the deposited data

Results flagged for a closer look

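With 1 library per group, what drew attention was a pair of contrasts in opposite directions whose intervals lay on either side of 0; no such difference was tested. Psmd3, the lid gene, had a log2 ratio of Iigp1 over naive-type cells of 0.28 (0.01 to 0.54) for recipient and -0.36 (-0.70 to -0.04) for donor cells. Its log2 ratio of recipient over donor was -0.20 (-0.38 to -0.01) in naive-type cells and 0.45 (0.07 to 0.83) in Iigp1 cells, and both pairs use the same 4 sums. The smallest of these sums was 99 UMIs. Psmb9, the beta1i gene, had a log2 ratio of recipient over donor of -0.13 (-0.22 to -0.04) in naive-type cells and 0.13 (0.08 to 0.18) in Ly6c2 cells. The log2 odds ratio of immunoproteasome against constitutive UMIs, recipient over donor, was 0.12 (0.07 to 0.17) in Ly6c2 cells and -0.12 (-0.21 to -0.03) in Gzmk cells.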

How the results depend on the processing

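No paired analysis was possible because each group had 1 library. The log2 odds ratios kept their direction under the 10 alternatives that change which cells are used, and 1 moved outside its interval: Iigp1 over naive-type cells in the recipient was 0.31 with mutually exclusive groups and 0.00080 after thinning to 3500 UMIs, against 0.15. Of 105 gene ratios, 105 stayed inside their intervals with Lef1 in place of Ccr7, at most 5% mitochondrial UMIs, at least 1000 genes, no cycling cells or no shared barcodes, 104 without the common Trbv segments, 103 with doublets kept, 102 with exclusive groups, 95 with higher group thresholds and 85 after thinning. A ratio is called reversed where it turned sign and its interval excluded 0 both before and after. With TMM factors 73 stayed inside and 2 reversed, in recipient Gzmk cells: Psme1 at -0.10 and Psme2 at -0.094. With totals without ribosomal and mitochondrial genes 75 stayed inside and 3 reversed: Psme1 at -0.12 and Psme2 at -0.12 in the recipient and Psme1 at -0.071 in the donor. In the donor Psme1 under TMM, at -0.057, and Psme2 under both scalings, at -0.013 and -0.028, also turned below 0, with intervals that held 0.

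Counts of members past a log2 ratio of 0.32 moved as follows, the cause being the construction of the alternative for the UMI minimum and otherwise not tested. For recipient over donor, those higher were 0 after thinning (with 1 lower), without cycling cells, without the common Trbv segments or with a minimum of 1000 UMIs, and 3 with no minimum. For Gzmk cells in the recipient, those lower were 0 after thinning, without the common Trbv segments or with a minimum of 1000 UMIs and 2 with no minimum; under TMM or without ribosomal genes 0 were higher and 2 lower. For Gzmk cells in the donor, 0 were higher and 3 lower under TMM, 0 higher and 4 lower without ribosomal genes, 15 higher with a minimum of 1000 UMIs, and 1 lower with a minimum of 100 or none or without the common Trbv segments. For Ly6c2 cells in the recipient 1 was higher with a minimum of 100 UMIs, and 2 were higher and 1 lower with none. In the donor 1 was higher after thinning, 1 lower with a minimum of 100 UMIs, and 1 higher and 1 lower with none. For Iigp1 cells in the recipient 8 were higher and 6 lower with higher thresholds, 4 higher after thinning, 2 lower with exclusive groups, and 1 higher and 1 lower without the common Trbv segments or with no minimum. There 1 was higher with a minimum of 100 UMIs, and 1 lower with at least 1000 genes, without cycling cells, without shared barcodes, under TMM or without ribosomal genes. For Iigp1 cells in the donor 2 were higher with Lef1, 3 higher and 2 lower with higher thresholds, 2 and 2 with a minimum of 100 UMIs, 2 and 4 with none, and 0 lower with exclusive groups, thinning, no common Trbv segments or a minimum of 1000 UMIs.

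Depth limits the Iigp1 groups most: a member at 50 CPM or so there rests on about 100 UMIs, and small differences in such genes were not detectable.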
